A study of Mus musculus with 32 samples.

Results

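FAPs (fibro-adipogenic progenitors), mesenchymal cells that lie between the fibres of skeletal muscle, were compared between day 7 and day 3 in muscles that carried a brown fat graft. The members are the 8 RNA-seq libraries that the labels give as FAPs from muscle with brown adipose tissue (BAT), 4 at day 3 and 4 at day 7, of 32 libraries in the series. They were picked out by these labels and not by a measured value, though with earlier results of these data known. By the labels, all came from the supraspinatus, a muscle of the rotator cuff, of wild-type male C57BL/6J mice aged 12 weeks. The sex-linked transcripts of day 7 replicate 3, given below, differed from those of the other libraries labelled male. Every muscle had been injured by an injection of cardiotoxin, a venom toxin that destroys muscle fibres, and the BAT muscles were then transplanted with interscapular BAT of donor mice aged 3 weeks. Control FAPs came from muscles of the same mice that were injured in the same way and received no graft, and they are used here only for comparison. The cells had been sorted as CD45- (no leukocyte marker), CD31- (no endothelial marker), Sca1+ and integrin alpha 7-. The rest of the series is satellite cells and the control FAPs. The labels call the libraries biological replicates. The mice of day 3 and day 7 are different animals, and the values of each day stand in a table of their own, so that day cannot be told apart from deposited table or from any batch that goes with it.

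FAPs support muscle repair after injury. In the first days they are known to proliferate and to release cytokines and chemokines. Later they are known to withdraw from the cell cycle, to lay down a transient matrix of collagens and glycoproteins that frames new fibres, and to send growth factors to satellite cells. Whether the graft was removed before sorting is not given in the sources used here, so that sorted cells of host and graft cannot be told apart.

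The libraries held 27.3 to 32.5 M counts at day 3 and 22 to 29.6 M at day 7 (28.7 ± 2.53 and 24.4 ± 3.53 M, SD, n = 4). A gene without a count can still have been present at up to 0.0923 to 0.136 CPM, depending on the library (3 counts of the total, counting error only). Levels are given as CPM, counts per M counts of a library (M, 1e+06) after scaling of the 8 libraries by TMM. The 50 most abundant genes took 23.8 ± 0.318% of the counts at day 3 and 30.0 ± 3.44% at day 7 (two-sided exact permutation test, p = 0.0286, the smallest that 4 against 4 can give, adjusted p = 0.114 over 4 library measures). The marker gene of FAPs, Pdgfra, encodes a growth factor receptor and stood at 325, 311, 273 and 385 CPM in day 3 replicates 1 to 4 and at 291, 305, 330.4 and 247 CPM at day 7. Ly6a, which encodes Sca1, was at 694, 812, 539 and 762 CPM at day 3 and at 701, 686, 438 and 568 CPM at day 7. The ranges of both days overlapped for both markers, and neither passed the test (edgeR adjusted p = 0.55 and 0.42). Every library thus carried both markers of the label.

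One library of each day stood apart. Day 3 replicate 1 carried macrophage transcripts. The 26 listed genes of macrophages and monocytes summed to 7423, 107, 171 and 41.7 CPM in day 3 replicates 1 to 4 and 123, 132, 154 and 82.5 CPM at day 7. Lyz2, the lysozyme of myeloid cells, reached 2528 CPM in that library against 3.41 to 55.4 CPM in the other day 3 libraries and 5.98 to 20.7 CPM at day 7. Cd68, Adgre1 and Ptprc, the gene of CD45, stood at 368, 123 and 34 CPM in it and at or below 7.34 CPM in the other 7 libraries. None of the 26 genes was at 0 in every library, and 21 to 26 of them had a count in each. In bulk RNA, fewer cells of a type and less RNA per cell cannot be told apart. The same library had the highest day 3 sums of myogenic genes (280 against 19.7 to 28.4 CPM), erythroid genes (408 against 2.62 to 30.8 CPM) and mature myofibre genes (59.7 against 5.62 to 8.22 CPM). Itga7, the integrin that the gate selects against, was at 37.3, 2.29, 3.28 and 3.21 CPM at day 3 and at 4.79, 6.63, 16.8 and 3.76 CPM at day 7. Pax7, the satellite cell factor, was at 1.2 CPM in it, at 0.327 CPM in day 7 replicate 3 and had a count of 0 in the others. Pecam1, the gene of CD31, was at 7.74, 0.776, 0.184 and 0.321 CPM at day 3 and at 2.88, 1.64, 3.04 and 0.600 CPM at day 7. The brown fat gene Ucp1, for heat production, did not exceed 0.363 CPM in any of the 8 libraries.

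**Figure D1:**
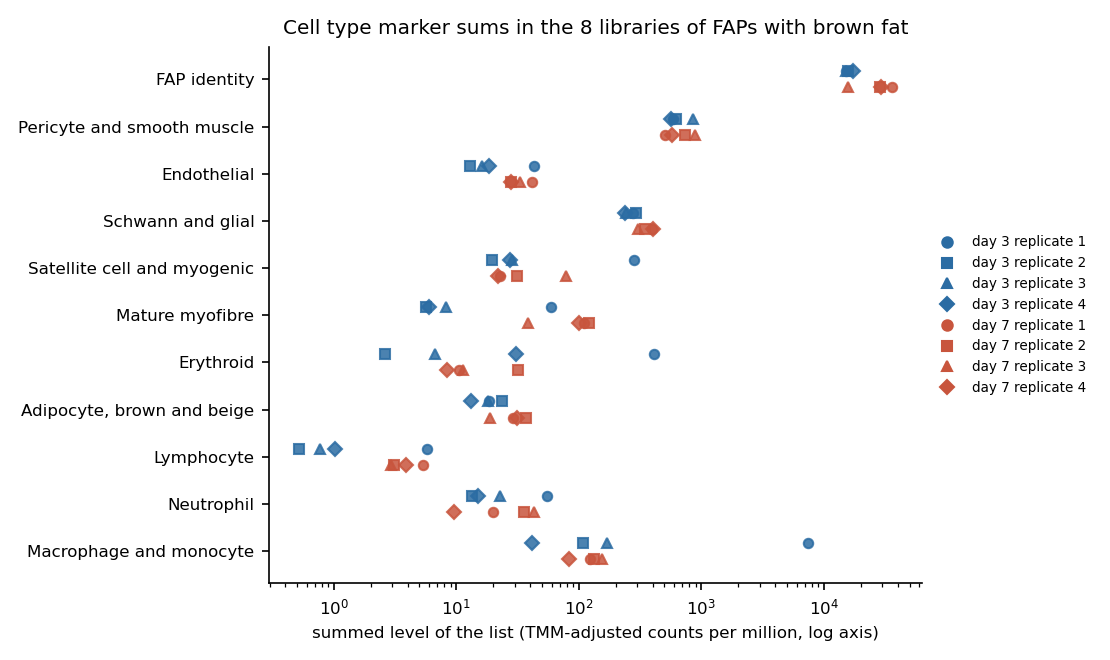
Summed TMM-adjusted CPM (log axis) of marker lists of the FAPs and of cell types that the sort could admit, 1 point per library (blue, day 3; red, day 7; shape, replicate). Macrophage genes summed to 7423 CPM in day 3 replicate 1 and to between 41.7 and 171 CPM in the other 7 libraries.

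Day 7 replicate 3 differed in another way. Xist, the RNA of the inactive X chromosome, was at 163 CPM in this library and Ddx3y, a gene of the Y chromosome, had 0 counts, whereas the other 7 BAT libraries held 48.5 to 103 CPM of Ddx3y and at most 0.129 CPM of Xist (unadjusted CPM). The control library with the same mouse code showed the same pattern (178 CPM of Xist, 0 counts of Ddx3y), although the labels call all host mice male. This library was also the least shifted from day 3. Shift is the log2 difference from the day 3 mean, counted in the direction of the change. A value on the other side of that mean has a negative shift. Of the 3668 genes that differed between the days, day 7 replicate 3 had the smallest shift for 2306 (62.9%). For each of the other 3 the share was 6.87% to 17.3%. The control library of this mouse likewise had the smallest shift of its group for 51.8% of the genes called in control FAPs. Its part in the results was not tested beyond the counts without it that are given below.

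Of 16119 genes tested, 1661 were higher at day 7 (10.3% of those tested) and 2007 were lower (12.5%), so that 22.8% differed (edgeR quasi-likelihood test, adjusted p under 0.05). The median log2 change over all tested genes was 0.04. Against a threshold of 2-fold, 91 genes passed (0.565% of those tested), 76 of them higher and 15 lower. The groups did not overlap for 3150 of the 3668 called genes, while 26.4% of all tested genes had non-overlapping groups. Leaving out a library moved these counts: without day 7 replicate 3 they were 2259 higher, 2509 lower and 595 over 2-fold, and without day 7 replicate 1 they were 877, 1057 and 28. Without day 7 replicate 3 and day 3 replicate 1 together they were 2629, 2731 and 700. Each test was also run under 15 alternative settings. Of 141 called genes named here 99 were called under all of them and 9 under fewer than 8, and counts of 12 or fewer are given beside the gene.

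Leading genes were taken among called genes with a mean of at least 20 CPM at one of the days and no overlap of the groups. Of these the 3 largest rises were those of Igf2, Dlk1 and Cdkn1c, which are known as imprinted genes, expressed from 1 parental copy. Igf2, an insulin-like growth factor of fetal growth (chromosome 7, 142650766 to 142666816, minus strand, GENCODE M21 on mm10), was at 2.0, 2.7, 3.02 and 2.45 CPM in day 3 replicates 1 to 4 and at 353, 189, 82.6 and 458 CPM in day 7 replicates 1 to 4. No day 7 library came near the day 3 libraries, and the lowest was replicate 3. The log2 change was 6.73 ± 0.57 (SE), a 106-fold rise, with an edgeR adjusted p of 0.000619. H19, the untranslated RNA next to Igf2 (chromosome 7, 142575529 to 142578143), rose from 73.4, 90.3, 85 and 119 CPM to 723, 762, 645 and 1042 CPM, a log2 change of 3.11 ± 0.22 with no overlap. Dlk1, a transmembrane inhibitor of adipocyte formation (chromosome 12, 109452823 to 109463336), rose from 2.51, 1.81, 2.66 and 2.3 CPM to 91.2, 102, 11.2 and 161 CPM (log2 change 5.30 ± 0.77, adjusted p = 0.00471). Replicate 3 lay above every day 3 library and below the other day 7 libraries. Cdkn1c, which encodes the cell cycle inhibitor p57 (chromosome 7, 143458339 to 143461050), rose from 8.5, 7.06, 6.01 and 4.96 CPM to 133, 75.5, 40.3 and 232 CPM (log2 change 4.18 ± 0.54, adjusted p = 0.00261).

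Mest and Meg3 are imprinted as well and were chosen after their values were seen. Mest, a hydrolase gene, was at 265, 134, 190.1 and 90.3 CPM at day 3 and at 1444, 1091, 353 and 1807 CPM at day 7 (log2 change 2.79 ± 0.51, adjusted p = 0.00717). Meg3, an untranslated RNA of the Dlk1 region on chromosome 12, was at 122, 319, 216 and 310.4 CPM at day 3 and at 1555, 447, 1412 and 1160 CPM at day 7 (log2 change 2.24 ± 0.42, adjusted p = 0.00663). In Mest replicate 3 was again the lowest day 7 library, and in Meg3 it was replicate 2. Both genes kept the groups apart.

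The other 8 genes among the 12 largest rises include matrix and secreted proteins. Col6a6, a chain of collagen VI, rose from 1.63 to 2.03 CPM to 47.8, 20.5, 7.53 and 52.5 CPM. Egfl6, a secreted protein with EGF repeats, rose from 1.34 to 3.21 CPM to 42.2, 33.2, 24.6 and 33.4 CPM (log2 changes 4.07 ± 0.57 and 3.76 ± 0.29). Mdk, the heparin-binding growth factor midkine, rose from 15.4, 15.6, 23.3 and 12.8 CPM to 147, 117, 134 and 176 CPM (log2 change 3.09 ± 0.22, adjusted p = 0.000127), and the day 7 libraries spanned 117 to 176 CPM. Cpz, a carboxypeptidase with a frizzled-like domain, was at 2.11 to 4.81 CPM at day 3 and at 23.9, 33.3, 63.6 and 27.9 CPM at day 7, and here replicate 3 was the highest. Prss35, a serine protease-like protein, Nrk, a kinase gene of the X chromosome, Gask1a and Olfml2a rose by log2 3.23 ± 0.39, 3.64 ± 0.62, 3.42 ± 0.28 and 3.06 ± 0.56.

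**Figure D2:**
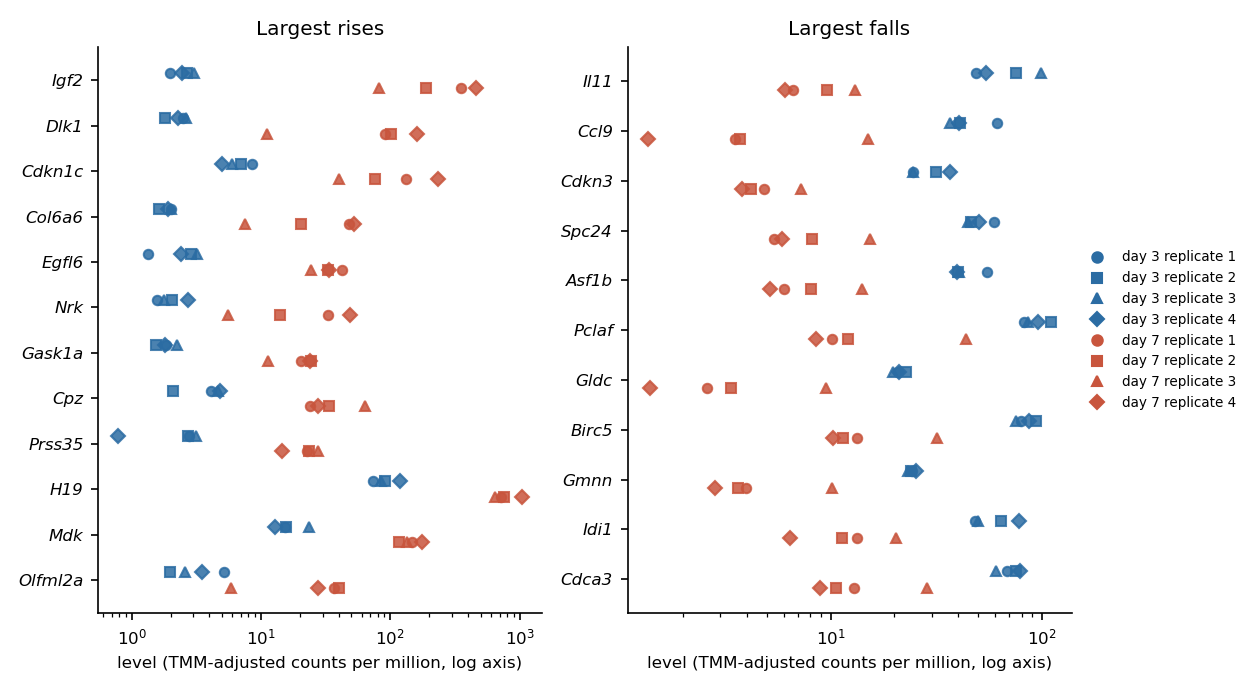
Levels (TMM-adjusted CPM, log axis) of the 12 genes with the largest rises and of 11 of the 12 with the largest falls between the days, 1 point per library (blue, day 3; red, day 7; shape, replicate). The genes were picked among those whose groups do not overlap, so that their separation is given by the choice. Day 7 replicate 3 (triangle) lies nearest to day 3 for Igf2 (82.6 CPM), Dlk1 (11.2 CPM) and the 11 falling genes shown.

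Of 25 tested genes of FAP identity 12 rose, 1 fell and 12 did not pass, with a median log2 change of 0.79 against 0.04 over all tested genes. The called share was 52%, against 22.8% of all tested genes. Without day 7 replicate 3, 16 rose and none fell. Pi16, which marks a fibroblast population of the adventitia, rose from 33.3, 28.8, 33.7 and 31 CPM to 286, 204, 56.8 and 221 CPM (log2 change 2.60 ± 0.41, adjusted p = 0.00427). Clec3b, the plasminogen-binding protein tetranectin, was at 10.7, 9.83, 16 and 21.3 CPM at day 3 and at 185, 120.2, 20.6 and 211 CPM at day 7 (log2 change 3.21 ± 0.67, adjusted p = 0.0144). Its groups overlapped through replicate 3 alone, and without that library the log2 change was 3.57 (adjusted p = 5.34e-05). Col15a1, a basement membrane collagen, had 19, 14.1, 19.9 and 15.3 CPM at day 3 and 185, 121, 21.6 and 209 CPM at day 7 (log2 change 2.98 ± 0.61), and its replicate 3 was just above the day 3 range. Gsn, the actin-severing protein gelsolin, was at 2152, 1430, 2214 and 2772 CPM at day 3 and 13636, 11062, 1796 and 8904 CPM at day 7, and its replicate 3 lay within the day 3 range (log2 change 2.05 ± 0.52, adjusted p = 0.0214, called in 8 of 15 alternatives). The gene that fell was Cxcl14, a chemokine of resting fibroblasts, with 127 to 169 CPM at day 3 and 82 to 125 CPM at day 7 (log2 change -0.55 ± 0.17). It was called in 6 of 15 alternatives, and without day 7 replicate 3 its adjusted p was 0.0549.

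Most collagen genes were higher at day 7. Of 8 fibrillar collagens tested, which form the rope-like fibres of the matrix, 6 rose and none fell (median log2 change 1.03). Of 17 other collagens 14 rose and none fell (median 1.41). Col1a1, the main chain of collagen I, was at 11162, 6712, 10294 and 6766 CPM at day 3 and at 23955, 63879, 19914 and 28020 CPM at day 7 (log2 change 1.96 ± 0.38, adjusted p = 0.00663). Replicate 2 of day 7 was the highest by a wide margin, and all day 7 libraries were above all day 3 libraries. Col1a2 and Col3a1, the partner chain and the collagen III chain, rose by log2 0.98 ± 0.22 and 1.06 ± 0.20. Col11a1, which starts thin fibrils, rose from 3.85, 7.39, 7.41 and 4.05 CPM to 55.6, 29.3, 17.7 and 45.6 CPM (log2 change 2.71 ± 0.38). Col5a3 rose by 0.99 ± 0.23 although day 3 replicate 4 (123 CPM) was above day 7 replicate 3 (122 CPM). Col11a2, at most 3.88 CPM, had a log2 change of 2.24 ± 0.70 (adjusted p = 0.0416, called in 6 of 15 alternatives). Col5a1 (0.56 ± 0.21, adjusted p = 0.0719) and Col5a2 (0.35 ± 0.15, adjusted p = 0.115) did not pass. Among the other collagens, Col6a5 was at 0.204 to 0.887 CPM at day 3 and at 6.54 to 17.5 CPM at day 7, and Col18a1, the source of endostatin, was at 46.6, 29.9, 43.8 and 43 CPM at day 3 and 232, 275, 154 and 253 CPM at day 7 (log2 changes 4.57 ± 0.51 and 2.48 ± 0.22).

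Of 23 genes for collagen modification and folding, 2 rose and 4 fell (median log2 change -0.11). This is 26.1% called, near the 22.8% of all tested genes, and without day 7 replicate 3 the counts were 4 and 5, without day 3 replicate 1 they were 1 and 2. Loxl4 and Lox, which cross-link collagen, fell by 1.09 and 0.89 on the log2 scale. P4ha2 and P4ha1, subunits of prolyl 4-hydroxylase, had log2 changes of -0.70 ± 0.21 and -0.65 ± 0.18. For Lox, day 7 replicate 3 (500 CPM) lay within the day 3 range (494 to 619.6 CPM), and the other 3 were at 200.2 to 258 CPM. Adamts14 and Adamts2, which trim procollagen, rose (log2 changes 0.90 ± 0.24 and 0.57 ± 0.15). Of these 6 genes Loxl4 alone was called in all 15 alternatives, and the others were called in 8 to 12.

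Among 45 matricellular and glycoprotein genes 21 rose and 1 fell (48.9% called, against 22.8% of all tested genes, median log2 change 0.89). Postn, periostin, was chosen after its values were seen, with 2892, 3121, 2735 and 2036 CPM at day 3 and 5841, 5020, 4924 and 6485 CPM at day 7 (log2 change 1.05 ± 0.19). The largest changes on this list were seen in 3 of the 4 day 7 libraries. Comp, Fmod and Fbln7, all proteins of fibrillar matrix, were at 389.8, 568, 51.4 and 268, at 1350, 1979, 115 and 1151 and at 290.2, 184, 34.4 and 277 CPM in day 7 replicates 1 to 4, against 39.4 to 65.6, 153 to 285 and 26.8 to 44.8 CPM at day 3. In all of them replicate 3 was within or below the day 3 range. They were called in 7, 5 and 9 of 15 alternatives. Their log2 changes were 2.53 ± 0.62, 2.40 ± 0.72 and 2.52 ± 0.58 with all libraries and 2.88, 2.78 and 2.86 without replicate 3. Cilp2, a cartilage matrix protein, had the same shape (log2 change 4.04 ± 0.93, replicate 3 at 0.654 CPM against 13.1 to 29.0 CPM in the others, called in 8 of 15 alternatives). Has2, a hyaluronan synthase, fell from 58.9, 125, 102 and 88.8 CPM to 40.2, 42, 41.3 and 27 CPM (log2 change -1.32 ± 0.23, adjusted p = 0.00486).

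Of 32 metalloproteinases and inhibitors 14 rose and 1 fell (46.9% called, against 22.8% of all tested genes, median log2 change 0.60). Mmp2, the gelatinase of fibroblasts, rose from 479, 377, 549 and 431 CPM to 1763, 1706, 1313 and 1820 CPM (log2 change 1.85 ± 0.18, adjusted p = 0.000619). Adamts15 and the collagenase Mmp13 rose by 2.75 ± 0.40 and 2.18 ± 0.40. Mmp3, stromelysin, was at 17.7, 23.2, 18.6 and 11.5 CPM at day 3 and at 73.7, 47.1, 422 and 37.3 CPM at day 7, and replicate 3 was the highest. Its log2 change of 3.03 ± 0.88 became 1.57 without that library, and it was called in 9 of 15 alternatives. Of 19 tendon and cartilage genes 6 rose and none fell, among them Mkx, a transcription factor of tendon, from 3.7 to 9.48 CPM to 13.5 to 24.8 CPM (log2 change 1.76 ± 0.32). The called share of this list was 31.6%, against 22.8% of all tested genes. Without day 7 replicate 3, 12 rose on this list, and without both libraries that stood apart 11 rose and 1 fell. Of 14 contractile and myofibroblast genes 1 rose and 2 fell (median -0.28), and without day 7 replicate 3, 1 rose and 5 fell. With all libraries 21.4% of them were called, near the 22.8% of all tested genes.

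**Figure D3:**
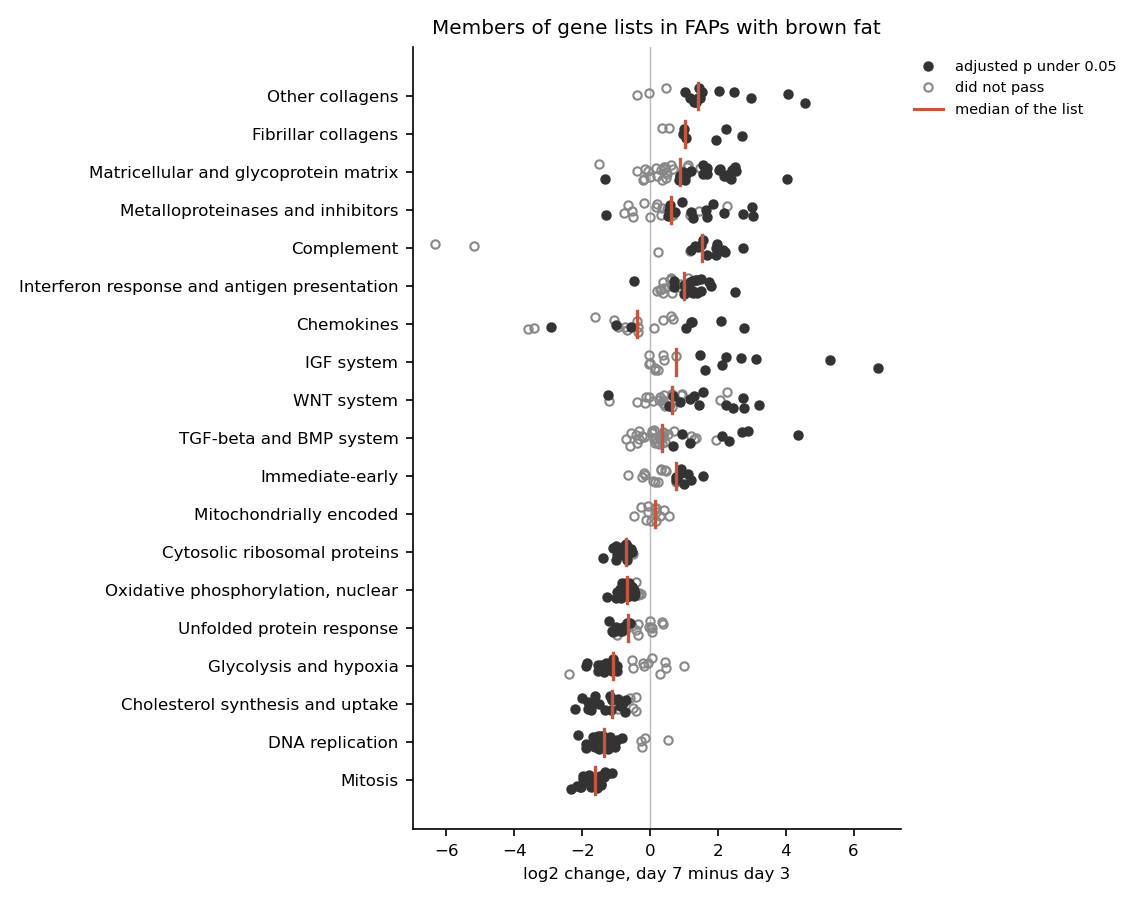
Log2 change between day 7 and day 3 of each tested member of 19 gene lists (filled points, adjusted p under 0.05; open points, did not pass; red line, median of the list). All 30 mitosis genes lie to the left of 0 with filled points, whereas the collagen lists lie to the right with medians of 1.03 and 1.41.

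Genes of cell division were lower at day 7. All 30 mitosis genes tested fell (median log2 change -1.63), and of 30 DNA replication genes 26 fell and none rose (median -1.35). Birc5, the survivin subunit of the chromosomal passenger complex, was at 79.8, 93.2, 75.3 and 86.4 CPM at day 3 and at 13.3, 11.4, 31.8 and 10.2 CPM at day 7 (log2 change -2.33 ± 0.34, adjusted p = 0.0029). Plk1, the kinase that drives mitotic entry, was at 72.2, 25.5, 45.8 and 43.3 CPM at day 3 and 6.87, 13.2, 17.4 and 4.28 CPM at day 7 (log2 change -2.16 ± 0.46). Ccnb2, a B-type cyclin, was at 103, 88.3, 82.4 and 102 CPM at day 3 and 19.6, 14.4, 41.4 and 15.2 CPM at day 7 (log2 change -2.05 ± 0.32). In each of these genes replicate 3 was the highest day 7 library and still below every day 3 library. Aurkb, a kinase of the same passenger complex, fell by 2.04 on the log2 scale.

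Of the replication genes, Mcm5, a subunit of the replicative helicase, was at 141, 80.8, 104 and 92 CPM at day 3 and at 14.7, 33.4, 34.2 and 13.1 CPM at day 7 (log2 change -2.13 ± 0.34, adjusted p = 0.00426). Rrm2, the ribonucleotide reductase subunit that makes deoxynucleotides, Tk1, thymidine kinase, and Gins2, another helicase subunit, had log2 changes of -1.88 ± 0.37, -1.89 ± 0.28 and -1.69 ± 0.21. The 12 leading falls also held Cdkn3 (-2.55 ± 0.25), Spc24 (-2.53 ± 0.31), Asf1b (-2.39 ± 0.30), Pclaf (-2.33 ± 0.52), Gmnn (-2.24 ± 0.36) and Cdca3 (-2.22 ± 0.34). These act as a phosphatase of cyclin-dependent kinases, a kinetochore subunit, a histone chaperone, a partner of the replication clamp, the licensing inhibitor geminin and a mitotic entry factor. Also among them was Gldc, of glycine breakdown (-2.33 ± 0.49).

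Promoter sequences of genes that fell together are shown with the short motifs that recur in them, taken from RefSeq on GRCm38.p6 as 250 bases before to 50 bases after an annotated start. Capitals mark CCAAT and TTTGAA in Plk1 and Ccnb2, and CCAAT and the E2F-like TTTCCCGC or TTTGGCGC in Mcm5, on either strand, and no marked motifs overlap. Plk1 is at chr7:122159185-122159484 (plus strand), Ccnb2 at chr9:70421505-70421804 (minus strand) and Mcm5 at chr8:75109259-75109558 (plus strand).
Plk1: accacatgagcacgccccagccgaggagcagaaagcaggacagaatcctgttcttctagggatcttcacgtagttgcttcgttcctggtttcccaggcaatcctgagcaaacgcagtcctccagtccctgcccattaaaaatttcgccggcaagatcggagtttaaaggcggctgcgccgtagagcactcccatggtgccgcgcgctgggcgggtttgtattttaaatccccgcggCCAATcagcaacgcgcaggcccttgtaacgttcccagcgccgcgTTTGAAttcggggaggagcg
Ccnb2: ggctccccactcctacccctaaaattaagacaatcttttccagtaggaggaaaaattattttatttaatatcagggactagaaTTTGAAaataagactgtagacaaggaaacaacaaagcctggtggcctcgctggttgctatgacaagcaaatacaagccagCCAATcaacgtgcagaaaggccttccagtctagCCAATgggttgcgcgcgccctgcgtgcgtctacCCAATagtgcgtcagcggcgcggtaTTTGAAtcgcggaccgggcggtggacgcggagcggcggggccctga
Mcm5: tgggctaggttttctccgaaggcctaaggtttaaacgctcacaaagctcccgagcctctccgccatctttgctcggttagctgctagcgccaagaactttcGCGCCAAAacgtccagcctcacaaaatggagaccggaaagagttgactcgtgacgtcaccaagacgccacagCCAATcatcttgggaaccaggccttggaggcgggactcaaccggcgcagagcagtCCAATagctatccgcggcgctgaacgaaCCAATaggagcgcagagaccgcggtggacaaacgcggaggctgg

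Of the 30 mitosis genes 25 matched an entry, with 27 promoters. CCAAT was in 23 of these (85.2%) and TTTGAA in 21 (77.8%). Over all 32851 promoters of this length the shares were 37.4% and 17.9%, and over the 13938 promoters of tested genes they were 37.7% and 12.55%. Of 29 promoters of 24 DNA replication genes 8 held an E2F-like motif (27.6%), against 1.57% of all promoters and 2.73% of those of tested genes. The Birc5 window held neither CCAAT nor TTTGAA. The matches are a description of letters in these windows.

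D cyclins and inhibitors of cyclin-dependent kinases moved in both directions: of 14 tested, 4 rose, 2 fell and 8 did not pass (median log2 change 0.35). The called share was 42.9%, against 22.8% of all tested genes. Besides Cdkn1c, Cdkn2b (p15) rose from 2.32, 2.03, 3.76 and 2.33 CPM to 7.59, 19.1, 5.98 and 8.08 CPM, and Cdkn2c (p18) rose from 5.08, 6.54, 5.64 and 5.8 CPM to 11.3, 10.8, 11.8 and 12 CPM (log2 changes 1.96 ± 0.38 and 0.99 ± 0.17). Rbl2, a retinoblastoma-like pocket protein of resting cells, rose by 0.81 ± 0.17, and its relative Rbl1 fell by 0.97 (called in 8 of 15 alternatives). Cdk4, the partner kinase of D cyclins, fell by 0.62. The D cyclins did not pass: Ccnd1 had a log2 change of -0.67 ± 0.23, Ccnd2 of 0.24 ± 0.16 and Ccnd3 of 0.71 ± 0.25 (adjusted p = 0.0548, 0.304 and 0.0596). Cdkn1a (p21) and Cdkn1b (p27) did not pass either (log2 changes 0.47 ± 0.28 and 0.23 ± 0.16). Of 16 p53 targets 3 rose, namely Phlda3 (1.09 ± 0.25), Trp53inp1 (0.91 ± 0.19) and Btg2 (0.90 ± 0.18), and none fell. This is 18.75% called, against 22.8% of all tested genes, so that the count does not exceed the background.

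Genes of protein synthesis and of energy metabolism were lower at day 7. Of 30 cytosolic ribosomal protein genes 28 fell and none rose (median log2 change -0.70), and of 28 ribosome biogenesis genes 8 fell and none rose (median -0.48). The called share of the ribosome biogenesis list was 28.6%, against 22.8% of all tested genes. Rps16 was at 68.7, 117, 96.6 and 95.9 CPM at day 3 and at 40.4, 45.1, 59.3 and 44.9 CPM at day 7 (log2 change -1.0 ± 0.19). Rpl11 had a log2 change of -1.38 ± 0.23. Ribosomal protein genes have many near-identical copies in the genome, and the way in which reads were shared among them is not given in the sources used here, so that their levels are uncertain. Npm1, the nucleolar chaperone nucleophosmin, was at 822, 1205, 996 and 982 CPM and then at 397, 396, 698 and 434 CPM, with replicate 3 the highest of day 7 (log2 change -1.06 ± 0.22). Nhp2, of small nucleolar particles, fell by 1.24.

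Of 40 nuclear genes of oxidative phosphorylation 35 fell and none rose (median log2 change -0.67). Ndufa4, a respiratory chain subunit, was at 132, 206, 197 and 192 CPM at day 3 and at 74.2, 46.5, 103 and 79.8 CPM at day 7 (log2 change -1.26 ± 0.24), and Cox6b1 fell by 0.88. The 13 mitochondrially encoded genes gave no call in either direction (median 0.15, and -0.01 with 1 lower without day 3 replicate 1). Of 28 glycolysis and hypoxia genes 15 fell and none rose (53.6% called, against 22.8% of all tested genes, median -1.08). Pgk1, phosphoglycerate kinase, was at 188, 224, 159 and 174 CPM at day 3 and at 43.1, 52.4, 67 and 42.7 CPM at day 7 (log2 change -1.86 ± 0.19, adjusted p = 0.000619). Ldha, lactate dehydrogenase A, was at 1644, 1790, 1488 and 1496 CPM at day 3 and 520.4, 512, 716 and 466 CPM at day 7 (log2 change -1.54 ± 0.18). Eno1 and Gapdh, with log2 changes of -1.87 ± 0.19 and -1.54 ± 0.18, have near-identical copies and are uncertain in the same way.

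Cholesterol synthesis followed the same direction, with 18 of 23 genes lower and none higher (median log2 change -1.12). Idi1, an isomerase of the isoprenoid steps, was at 48.2, 63.8, 49.6 and 77.6 CPM at day 3 and at 13.4, 11.3, 20.3 and 6.4 CPM at day 7 (log2 change -2.22 ± 0.32, adjusted p = 0.00261). Fdps, which makes farnesyl diphosphate, was at 66.4, 73, 85 and 124 CPM at day 3 and 16.3, 27.5, 31.1 and 11.7 CPM at day 7 (log2 change -2.01 ± 0.32). Lss, of a later step, had a log2 change of -1.84 ± 0.37. CCAAT was in 15 of 18 promoters of 15 genes on this list (83.3%), against 37.4% of all promoters. A sterol element motif, TCACNCCAC, was in 1 of the 18 (5.56%) and in 1.24% of all promoters.

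Of 24 unfolded protein response genes 10 fell and none rose (41.7% called, against 22.8% of all tested genes, median log2 change -0.64). Hsp90b1, an endoplasmic reticulum chaperone, was at 1780, 2460, 1885 and 1924 CPM at day 3 and at 815, 895, 1211 and 756 CPM at day 7 (log2 change -1.13 ± 0.20). Pdia6, a disulfide isomerase, and Manf, a secreted chaperone, fell by 1.21 and 1.00 on the log2 scale. Creld2 had a log2 change of -1.10 ± 0.30 and was called in 8 of 15 alternatives. Of 20 genes of oxidative stress defence 6 fell and none rose, including Txn1, thioredoxin (-1.04 ± 0.17), and Nqo1, a quinone reductase (-1.12 ± 0.28, called in 12 of 15 alternatives). The called share of this list was 30%, against 22.8% of all tested genes.

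Inflammatory messengers held calls in both directions, but few among the cytokines. Il11, a cytokine of the interleukin 6 family that fibroblasts secrete, gave the largest fall among the leading genes, from 48.6, 75.6, 98.5 and 54.1 CPM to 6.61, 9.57, 13 and 6.08 CPM (log2 change -2.97 ± 0.31, adjusted p = 0.000732). Of 32 cytokines and innate effectors 3 rose and 1 fell, which is 12.5% called against 22.8% of all tested genes. Without day 3 replicate 1 the counts were 2 and 4, without day 7 replicate 3 they were 2 and 6, and without both they were 4 and 11. The median log2 change of the list was 0.24, and it was -0.31 without day 7 replicate 3. Socs3, the feedback inhibitor of cytokine receptors, rose from 337, 226, 242 and 325 CPM to 1060, 577, 408 and 627 CPM (log2 change 1.24 ± 0.28). Icam1, an adhesion molecule, and Ptgis, prostacyclin synthase, had log2 changes of 1.35 ± 0.37 and 1.41 ± 0.39 and were called in 9 and 5 of 15 alternatives. Without day 7 replicate 3 the adjusted p of Icam1 was 0.0568.

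Of 22 chemokines 5 rose, 3 fell and 14 did not pass (36.4% called, against 22.8% of all tested genes, median log2 change -0.38). The sign of this median depended on 1 library: it was 0.50 without day 3 replicate 1 and -0.74 without day 7 replicate 3, and in control FAPs it was 0.31. Cxcl9, an interferon-induced ligand of Cxcr3, rose from 14.1, 31.7, 29.3 and 10.9 CPM to 220.4, 148, 82.7 and 136 CPM (log2 change 2.77 ± 0.41, adjusted p = 0.00372). Cxcl10, a ligand of the same receptor, had 90.6, 166, 95.8 and 92.2 CPM at day 3 and 188, 249.9, 475 and 139.6 CPM at day 7 (log2 change 1.24 ± 0.37, adjusted p = 0.0387, called in 8 of 15 alternatives), with day 3 replicate 2 above day 7 replicate 4. Ccl5, Ccl11 and Ccl19, which attract T cells, eosinophils and dendritic cells, rose by log2 2.10 ± 0.40, 1.07 ± 0.27 and 1.21 ± 0.35 and were called in 15, 9 and 10 of 15 alternatives.

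Ccl9 fell from 61.3, 40.7, 36.5 and 40.2 CPM to 3.52, 3.74, 15.1 and 1.36 CPM (log2 change -2.92 ± 0.68). Ccl2, which recruits monocytes, fell from 3642, 6241, 5669 and 4646 CPM to 2184, 3577, 2739 and 1653 CPM (log2 change -0.99 ± 0.26). Both were called in 11 of 15 alternatives. The third that fell was Cxcl14. Cxcl1, a neutrophil attractant, did not pass, with 4098, 6657, 6131 and 4755 CPM at day 3 and 2603, 4299, 7880 and 1650 CPM at day 7. Cxcl5 (614 to 1864 and 117, 818, 1867 and 114 CPM) and Cxcl12 (791 to 1129 and 476, 935, 3054 and 440.2 CPM) did not pass either. In all 3 of these, day 7 replicate 3 was the highest day 7 library. Saa3, an acute-phase protein chosen after its values were seen, was at 4165 CPM in this library and at 29.8 to 44.9 CPM in the other day 7 libraries, against 31.5 to 123 CPM at day 3 (adjusted p = 0.19). Its fitted log2 change was 3.89 ± 1.92, and without replicate 3 it was -1.02 (adjusted p = 0.116).

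Of 16 complement genes 12 rose and none fell (median log2 change 1.54). C2, a protease of the classical pathway, was at 5.67, 5.54, 5.72 and 4.46 CPM at day 3 and at 32.7, 46.1, 32.9 and 32.2 CPM at day 7 (log2 change 2.75 ± 0.19, adjusted p = 0.000127). C3, the central component, was chosen after its values were seen, with 341, 328, 434 and 433 CPM at day 3 and 793, 1165, 2101 and 463 CPM at day 7 (log2 change 1.56 ± 0.39). Clu, the fluid-phase inhibitor clusterin, and Cd55, which breaks up convertases on the cell surface, rose by 2.22 ± 0.28 and 1.96 ± 0.37. C7, of the membrane attack complex, had a log2 change of 2.16 ± 0.67 with replicate 3 at 0.841 CPM against 11.1 to 15.1 CPM in the other day 7 libraries, and it was called in 4 of 15 alternatives.

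Of 36 genes of interferon response and antigen presentation 18 rose and 1 fell (52.8% called, against 22.8% of all tested genes). The median log2 change was 0.99, and 30 rose and 1 fell without both libraries that stood apart. Iigp1, an interferon-induced GTPase against intracellular parasites, rose from 48.7, 86.3, 64.6 and 46.9 CPM to 535, 206, 322 and 339.8 CPM (log2 change 2.51 ± 0.30, adjusted p = 0.00138). Gbp2, a guanylate-binding protein, rose from 39.4, 39.1, 38.8 and 31.1 CPM to 156, 133, 130.5 and 94.6 CPM (log2 change 1.79 ± 0.17, adjusted p = 0.000619). Irf1, an interferon-regulated transcription factor, rose from 102, 133, 96.3 and 87.2 CPM to 288, 427, 487 and 211 CPM (log2 change 1.75 ± 0.26). H2-Q4, a class I gene with close relatives among which reads cannot be placed with certainty, had a log2 change of 1.51 ± 0.28. Ifi27 had the opposite sign (-0.47 ± 0.15, adjusted p = 0.0477) and was called in 4 of 15 alternatives. Lymphocyte genes summed to 5.74, 0.517, 0.774 and 1.02 CPM at day 3 and to 5.34, 3.13, 2.95 and 3.92 CPM at day 7, with Cd8a at 0 in all 8 libraries; their part in the interferon result was not tested.

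The Gbp2 promoter is shown as an example of a gene that rose and whose window holds GAAANNGAAA, a motif of interferon-stimulated elements (in capitals, here on the opposite strand). It is at chr3:142620413-142620712 (plus strand).
Gbp2: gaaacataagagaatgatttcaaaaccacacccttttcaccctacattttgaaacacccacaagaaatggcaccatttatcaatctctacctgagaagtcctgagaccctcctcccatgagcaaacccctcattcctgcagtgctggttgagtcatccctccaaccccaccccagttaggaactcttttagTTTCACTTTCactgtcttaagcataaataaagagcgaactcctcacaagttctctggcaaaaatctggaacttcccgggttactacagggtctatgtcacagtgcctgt
The motif was in 16 of 35 promoters of 30 genes on the list (45.7%), against 3.44% of all promoters and 3.20% of those of tested genes.

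Among growth signals, more genes of the IGF and WNT systems rose than fell. Of 17 genes of the IGF system 8 rose and none fell (47.1% called, against 22.8% of all tested genes). The median log2 change was 0.77, and 0.43 without day 7 replicate 3. Besides Igf2, Igfbp5, an IGF-binding protein, rose from 34.1, 23.9, 26.3 and 41.4 CPM to 260.3, 294, 41.7 and 208 CPM (log2 change 2.68 ± 0.54). Igfbp4, another binding protein chosen after its values were seen, rose from 153, 107, 140.4 and 117 CPM to 497, 608, 466 and 685 CPM (log2 change 2.12 ± 0.19, adjusted p = 0.000354). Replicate 3 was the lowest day 7 library for both, close to day 3 in Igfbp5 and near the others in Igfbp4.

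Of 32 WNT system genes 12 rose and 1 fell (40.6% called, against 22.8% of all tested genes, median log2 change 0.66). Sfrp4, a secreted decoy of WNT ligands, rose from 31, 33.3, 23.5 and 23.1 CPM to 208, 195, 215 and 127 CPM (log2 change 2.75 ± 0.21, adjusted p = 0.000198), whereas its relative Sfrp2 fell from 326, 228, 305 and 369 CPM to 90.8, 120.5, 166 and 141 CPM (log2 change -1.24 ± 0.21, adjusted p = 0.00451). The groups were apart in both. Wif1 and Dkk3, also secreted inhibitors or modulators, and Rspo2, an enhancer of WNT signals, rose by 3.20 ± 0.61, 2.24 ± 0.28 and 2.77 ± 0.37. Of 39 TGF-beta and BMP system genes 8 rose and none fell (median 0.35). This is 20.5% called, against 22.8% of all tested genes, so that the count is near the background. Without day 7 replicate 3, 13 of 40 rose, and without day 3 replicate 1, 6 rose and 2 fell. Mstn, the muscle growth inhibitor myostatin, was at 0.467 to 1.51 CPM at day 3 and at 41.3, 12.4, 1.22 and 21 CPM at day 7 (log2 change 4.38 ± 0.98, called in 10 of 15 alternatives), with replicate 3 within the day 3 range. Ltbp4 and Ltbp3, which store latent TGF-beta, and Tgfb3 had log2 changes of 2.70 ± 0.60, 1.18 ± 0.24 and 0.93 ± 0.26 and were called in 12, 15 and 8 of 15 alternatives.

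Of 32 FGF, EGF and PDGF signals 9 rose and 2 fell (34.4% called, against 22.8% of all tested genes, median log2 change 0.43). Fgf10, a mesenchymal growth factor for epithelia and adipocyte precursors, was at 1.05, 0.554, 0.59 and 0.525 CPM at day 3 and at 9.88, 6.4, 9.07 and 5.16 CPM at day 7 (log2 change 3.48 ± 0.34, adjusted p = 0.000619). Bdnf, a neurotrophin, Fgf1 and Pdgfrl, a receptor-like protein, rose by 2.03 ± 0.37, 2.13 ± 0.42 and 1.28 ± 0.22. The 2 that fell were Vegfa, the endothelial growth factor, with 9.12, 28.4, 16.9 and 22.1 CPM at day 3 and 7.33, 8.0, 4.81 and 7.72 CPM at day 7 (log2 change -1.45 ± 0.32), and Vegfd (-1.04 ± 0.32, called in 8 of 15 alternatives). Retinoic acid genes went both ways, with 3 of 15 higher and 2 lower (median 0.02), and 6 of 16 higher and 3 lower without day 7 replicate 3. With all libraries 33.3% of them were called, against 22.8% of all tested genes. Rarg, a receptor, rose by 1.16 ± 0.23. Aldh1a2, the synthetic enzyme, fell from 141, 149, 165 and 113 CPM to 29, 36.5, 111 and 39.4 CPM (log2 change -1.40 ± 0.40, and -2.02 without replicate 3, called in 8 of 15 alternatives), and Rbp4, the plasma carrier, fell by 1.16.

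Of 24 immediate-early genes, which cells switch on within minutes of a stimulus, 11 rose and none fell (median log2 change 0.77). The called share was 45.8%, against 22.8% of all tested genes. Jun, a subunit of AP-1, rose from 934, 423, 638 and 848 CPM to 2024, 1727, 2142 and 2448 CPM (log2 change 1.55 ± 0.25, adjusted p = 0.00349). Egr1, a zinc finger factor of the same response, rose from 447, 344, 373 and 549.6 CPM to 847, 891, 821 and 896 CPM, and Atf3 rose by 1.20 ± 0.26. Dusp1, a phosphatase that ends the signal, had 846, 252, 303 and 489 CPM at day 3 and 1042, 1276, 798 and 1020 CPM at day 7 (log2 change 1.13 ± 0.35, called in 8 of 15 alternatives).

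Genes of other cell types moved less uniformly. Of 11 pericyte and smooth muscle genes 4 rose and none fell, led by the potassium channel subunits Kcnj8 (0.0875 to 0.406 and 4.16 to 8.4 CPM, log2 change 4.27 ± 0.45) and Abcc9 (0.443 to 0.817 and 3.6 to 6.48 CPM, log2 change 3.05 ± 0.31). Cnn1, the smooth muscle protein calponin, had a log2 change of 1.57 ± 0.43 (called in 9 of 15 alternatives). The summed level of the 12 pericyte genes was 568 to 848 CPM at day 3 and 503 to 893 CPM at day 7, so that the ranges overlapped. With all libraries 36.4% of the 11 tested were called, against 22.8% of all tested genes. Without day 7 replicate 3, 4 rose and 1 fell. Of 7 mature myofibre genes tested 3 rose and none fell (8 of 10 tested rose without day 3 replicate 1, and 5 of 9 without day 7 replicate 3), including Ckm, muscle creatine kinase, from 1.09, 0.185, 0.406 and 0.437 CPM to 18.7, 15.7, 2.52 and 16.3 CPM (log2 change 4.64 ± 0.71), and Tnnt3, a troponin (1.47 ± 0.42, called in 9 of 15 alternatives). The called share of the 7 myofibre genes was 42.9%, against 22.8% of all tested genes. The myofibre sum was 59.7, 5.62, 8.22 and 5.98 CPM at day 3 and 111, 121, 38.4 and 99.6 CPM at day 7. Of 6 Schwann and glial genes tested 2 rose and none fell (33.3% called, against 22.8% of all tested genes, median log2 change 0.24). The fitted change was above 0 for 4 of the 6. Without day 3 replicate 1, 1 of 6 rose, and without day 7 replicate 3, 2 of 7 rose. S100b, a glial gene, had a log2 change of 1.13 ± 0.37 (called in 6 of 15 alternatives). Of 11 endothelial genes tested none passed (median log2 change 0.58). Without day 3 replicate 1, 4 of the 11 rose (median 1.94), without day 7 replicate 3, 2 of 11 rose, and without both, 5 of 8 tested rose. Among the 4 was Pecam1, with a log2 change of 2.24 (adjusted p = 0.0377). In control FAPs 3 of 7 endothelial genes tested rose (median 2.28). The endothelial sum was 42.8, 12.9, 16.2 and 18.5 CPM at day 3 and 41.6, 28.1, 33.3 and 28.1 CPM at day 7. Day 3 replicate 1 was the highest of all 8 libraries, and the other day 3 libraries lay below every day 7 library. The part of endothelial transcripts in the other results was not tested. The 22 macrophage and monocyte, 4 erythroid, 3 myogenic, 2 neutrophil and 2 lymphocyte genes tested gave no call. The macrophage median log2 change was -5.28, and without day 3 replicate 1 it was -1.12, with 1 of 22 higher and 1 lower. In control FAPs 3 of 20 macrophage, 5 of 5 erythroid and 1 of 2 lymphocyte genes tested rose and none fell. The myogenic and neutrophil lists gave no call there. Without day 3 replicate 1, 1 of 3 lymphocyte genes tested rose, and without day 7 replicate 3, 1 of 2 neutrophil genes fell.

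Adipocyte marker genes were low. Of 12 genes of brown, beige and white adipocytes 5 passed the filter, of which 2 rose and 1 fell, and the 12 summed to 18.4, 23.5, 18.1 and 13.2 CPM at day 3 and 28.9, 37, 18.8 and 31.3 CPM at day 7. Genes of adipogenic regulators and lipid handling were more abundant, with sums of 4387, 1188, 1172 and 1177 CPM at day 3 and 1939, 1703, 1162 and 1997 CPM at day 7. Of 19 of these 3 rose and none fell (15.8% called, against 22.8% of all tested genes). Without day 7 replicate 3, 6 rose and 1 fell, and without day 3 replicate 1, 4 rose and 1 fell. The sum of 4387 CPM was that of day 3 replicate 1, the library that carried macrophage transcripts. The part of those transcripts in this sum was not tested. Adipoq, the adipocyte hormone adiponectin, was at 0.0363, 0.259, 0 and 0.117 CPM at day 3 and at 2.93, 1.56, 0.421 and 0.72 CPM at day 7 (log2 change 3.71 ± 0.85, adjusted p = 0.0128), close to the level that a count of 0 allows in several libraries. Dio2, a thyroid hormone deiodinase, had a log2 change of 0.98 ± 0.32 (called in 6 of 15 alternatives). Zfp423 and Ebf1, transcription factors of preadipocytes, rose by 1.01 ± 0.24 and 0.57 ± 0.16 and were called in 15 and 8 of 15 alternatives.

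List sums show how far each library had moved. The mitosis sum was 1794, 1478, 1352 and 1532 CPM in day 3 replicates 1 to 4 and 358, 393, 855 and 270.0 CPM in day 7 replicates 1 to 4. The fibrillar collagen sum was 32648, 23133, 33239 and 27463 CPM at day 3 and 57946, 107790, 65225 and 66279 CPM at day 7. Day 7 replicate 3 was thus the least changed for mitosis, whereas for fibrillar collagens it was close to replicates 1 and 4. Its interferon list sum was 4490 CPM against 6697 to 7769 CPM in the other day 7 libraries and 2688 to 4167 CPM at day 3. Its complement sum, 8094 CPM, was the highest of all 8 libraries. The IGF system sum was 1524, 1801, 1815 and 1731 CPM at day 3 and 5904, 4321, 4316 and 6128 CPM at day 7, with replicates 2 and 3 alike.

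**Figure D4:**
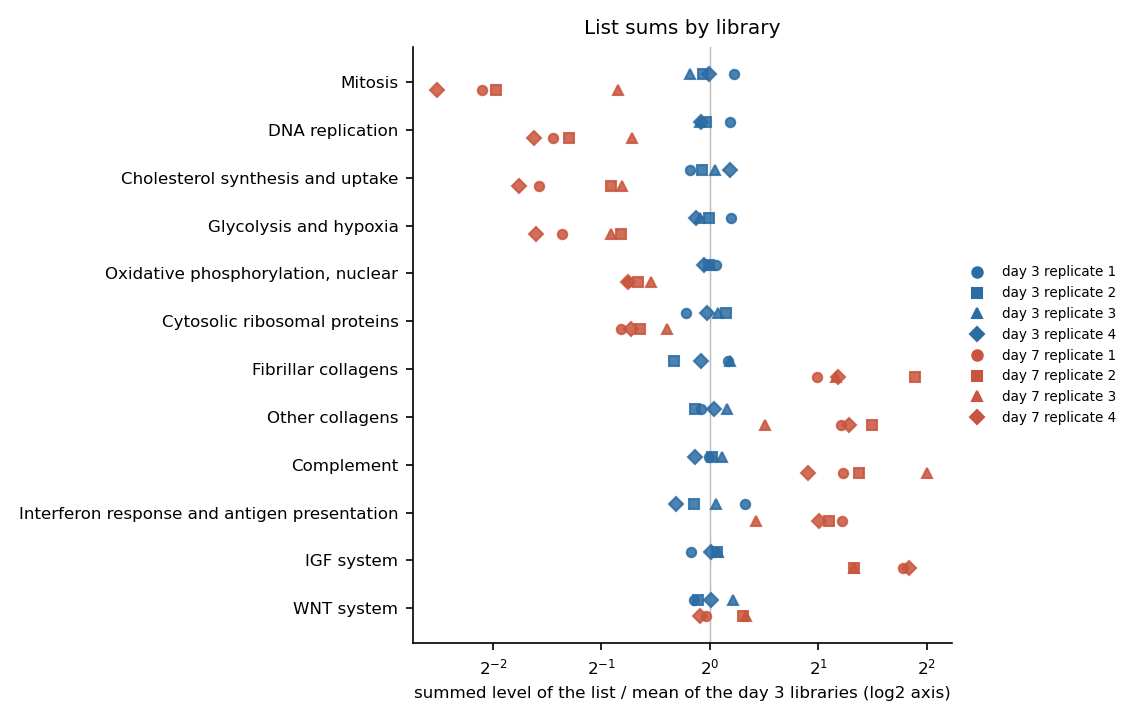
Summed level of 12 gene lists in each library over the mean of the 4 day 3 libraries (log2 axis; blue, day 3; red, day 7; shape, replicate). Day 7 replicate 3 (triangle) lies nearest to day 3 for mitosis (855 CPM) and farthest from it for complement (8094 CPM).

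FAPs from control muscle of the same mice were set beside these changes. Of 16144 genes tested in them 3716 differed between the days (23% of those tested), 1863 higher and 1853 lower. Of 15735 genes tested in both, 2640 were called in both in the same direction and 0 in opposite directions. This is 72.7% of the calls with BAT and 71.8% of the control calls. Igf2 changed by log2 6.73 ± 0.57 with BAT and by 6.53 ± 0.61 in control FAPs, Dlk1 by 5.30 ± 0.77 and 4.34 ± 0.56, Birc5 by -2.33 ± 0.34 and -2.55 ± 0.40, and Il11 by -2.97 ± 0.31 and -2.71 ± 0.36. The mitosis list gave 30 falls of 30 with BAT and 29 of 30 in control FAPs, and the complement list gave 12 rises of 16 in both.

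The difference between these day courses was tested in one fit of the 16 FAP libraries, with the mouse as a block. Day 3 replicate 4 has no mouse code in its label, and it was assumed to pair with the control library that also lacks a code. No gene of 17284 tested passed (0% called, edgeR quasi-likelihood test), 554 had an unadjusted p under 0.05, where 864 would be 5% of those tested, and the smallest adjusted p was 0.688. DESeq2 called 1 gene, Klhl6 (adjusted p = 0.0156), and limma voom called 0. For Igf2 the course with BAT minus the control course was 0.32 ± 0.43, and for Birc5 it was 0.32 ± 0.17. The genes with the smallest unadjusted p in each direction were Rasl11b and Klhl6. Rasl11b, a small GTPase-like gene, rose from 14.3 ± 1.95 to 36.7 ± 4.58 CPM with BAT and stood at 20.8 ± 1.95 and 31.9 ± 5.94 CPM in control FAPs (SD over the 4 libraries, difference 0.75 ± 0.15). Klhl6 was at 2.30 ± 4.4 CPM in BAT FAPs at day 3, where it ranged from 0.0292 to 8.90 CPM, at 0.205 ± 0.123 CPM in them at day 7, and at 0 and 0.438 ± 0.179 CPM in control FAPs at day 3 and day 7. The day 3 mean of Klhl6 with BAT thus rested on its highest library. Lif, the leukemia inhibitory factor, was at 152 ± 55.3 and 55.8 ± 40.0 CPM with BAT and at 77.8 ± 29.0 and 44.7 ± 30.2 CPM in control FAPs (difference -0.69 ± 0.16). Lif was also picked for its small unadjusted p and did not pass (edgeR adjusted p = 0.9999). The median SE of a difference was 0.27 on the log2 scale. The absence of a call does not show that the courses were alike. Without the mouse of day 7 replicate 3, Saa3 was the 1 gene called (difference -2.59, adjusted p = 0.022).

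**Figure D5:**
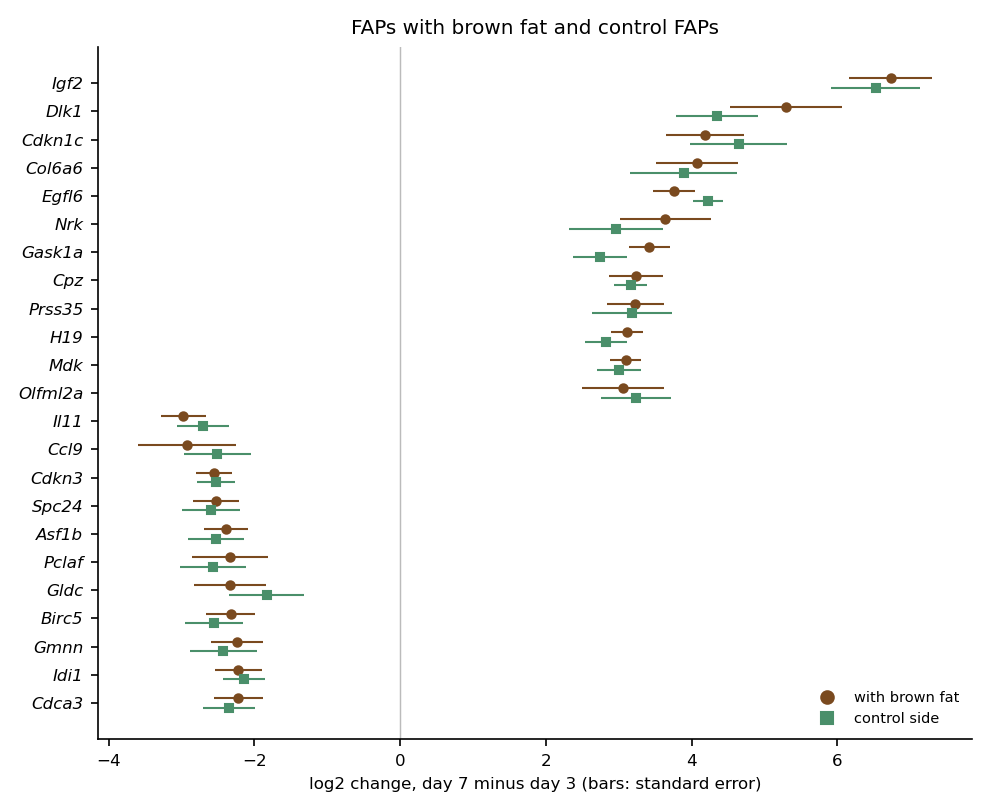
Log2 change between day 7 and day 3 (bars, standard error) of 23 of the 24 leading genes in FAPs with brown fat (circles) and in control FAPs (squares). Both values have the same sign for every gene shown, as for Igf2 with 6.73 and 6.53.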

How the data were processed

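RNA of sorted FAPs was amplified with a SMARTer Ultra Low kit and sequenced, per the labels' protocols. The authors used DRAGEN and mm10, per the submitters' processing notes, while the sources used here do not name the counting settings. Per gene, the deposited tables hold expected counts, and 71.8% of the values above 0 were whole. Of 55774 entries, 287 with a repeated gene identifier were removed. Counts were rounded, which changed a library total by at most 0.00034%. Library totals were 22 to 32.5 M counts (M, 1e+06). Genes were filtered with filterByExpr (minimum count 10, minimum total 15), scaled by TMM and tested with the quasi-likelihood test of edgeR 4.0.16 without a block, with Benjamini-Hochberg adjustment and a threshold of 0.05. Changes over 2-fold were tested with glmTreat. The difference between BAT and control day courses was fitted over 16 libraries with the mouse as a block. Library measures were compared with exact permutation tests. SE is that of the log2 change.

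Named genes were the 12 largest rises and falls among called genes with non-overlapping groups and a mean of at least 20 CPM, up to 4 called members of each of 41 lists in the main direction and up to 2 in the other (at least 5 CPM), all tested chemokines, fibrillar collagens and D cyclins with inhibitors, the checks of gate, cell type and sex (Pdgfra, Ly6a, Itga7, Pax7, Ptprc, Pecam1, Lyz2, Cd68, Adgre1, Ucp1, Adipoq, Xist and Ddx3y), and the genes with the smallest p of the day course difference. The members, the lists and the genes were chosen with earlier results of these data known. Genes outside this rule are marked in the text. A few genes that the rule names are not reported here, and they stay in the list counts. The motifs GAAANNGAAA and TCACNCCAC were added after the other motifs. Of 875 list members 872 were in the table. Alternatives were other size factors, no filter, DESeq2 1.42.0, limma 3.58.1 (voom), a replicate block, a joint fit, and leaving out libraries. The scripts were tested on simulated data.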

Additional observations from a re-analysis of the deposited data

Results flagged for a closer look

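Of 418 groups of 4 values examined, 44 (10.5%) held a library that stood apart from the other 3 by Dixon's criterion. For independent, normally distributed values the criterion flags about 1 in 20 groups. Some groups here are list sums beside their own members, and some genes were chosen after their values were seen. The share of 10.5% therefore cannot be set against that rate. Day 3 replicate 1 accounted for 17 of the 44 and day 7 replicate 3 for 16.

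Day 3 replicate 1 was the highest of its day for Ccl9 (61.3 against 40.7 CPM), Asf1b (54.8 against 40.6 CPM), Fgf10 (1.05 against 0.590 CPM), Rrm2 (168 against 128 CPM) and Itga7 (37.3 against 3.28 CPM). It was the highest of its day for Pax7 (1.20 against 0 CPM), Ptprc (34.0 against 0.811 CPM), Pecam1 (7.74 against 0.776 CPM), Lyz2 (2528 against 55.4 CPM) and Cd68 (368 against 7.34 CPM). It was the highest of its day for Adgre1 (123 against 1.48 CPM). It also had the highest summed level of the Macrophage and monocyte list (7423 against 171 CPM), Lymphocyte list (5.74 against 1.02 CPM), Satellite cell and myogenic list (279.6 against 28.4 CPM), Mature myofibre list (59.7 against 8.22 CPM), Erythroid list (408 against 30.8 CPM) and Adipogenic regulators and lipid handling list (4387 against 1188 CPM).

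Day 3 replicate 2 was the highest of its day for Cxcl10 (166 against 95.8 CPM).

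Day 3 replicate 4 had the highest total of its day, 32.5 M counts, against 27.5 M in the next library. It was the lowest of its day for C2 (4.46 against 5.54 CPM) and Gbp2 (31.1 against 38.8 CPM).

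Day 7 replicate 2 was the highest of its day for Adamts14 (58.7 against 36.7 CPM), C2 (46.1 against 32.9 CPM) and Cdkn2b (19.1 against 8.08 CPM). It also had the highest summed level of the Erythroid list (31.6 against 11.3 CPM) and Fibrillar collagens list (107790 against 66279 CPM).

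Day 7 replicate 3 was the highest of its day for Pclaf (43.7 against 12.0 CPM), Birc5 (31.8 against 13.3 CPM), Gmnn (10.1 against 3.98 CPM), Mmp3 (422 against 73.7 CPM) and Aldh1a2 (111 against 39.4 CPM). It was the highest of its day for Rrm2 (74.4 against 27.4 CPM), Npm1 (698 against 434 CPM), Rpl11 (10.3 against 7.0 CPM), Cox6b1 (134 against 107 CPM) and Pax7 (0.327 against 0 CPM). It was the highest of its day for Ptprc (0.841 against 0.127 CPM), Lyz2 (20.7 against 7.68 CPM), Cd68 (3.23 against 1.36 CPM), Xist (167 against 0.120 CPM) and Saa3 (4165 against 44.9 CPM). It also had the highest summed level of the Satellite cell and myogenic list (79.0 against 31.5 CPM).

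Day 7 replicate 4 was the lowest of its day for Has2 (27.0 against 40.2 CPM). Its share of counts from mitochondrial genes was 2.23%, against 2.65% in the next library.

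In each group the second value is that of the nearest other library. Whether macrophage, myogenic and erythroid transcripts in day 3 replicate 1, or the Xist and Ddx3y values of day 7 replicate 3, bear on the other values was not tested.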

How the results depend on the processing

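The main counts were 1661 genes higher, 2007 lower and 91 over 2-fold. With DESeq2 size factors they were 1711, 1952 and 94, with no filter 1519, 1563 and 111, with DESeq2 2309, 2408 and 133, and with a joint fit of all FAP libraries 2026, 2525 and 109. Limma voom gave 1556, 2114 and 29. Leaving out 1 library gave 877 to 2259 higher, 1057 to 2509 lower and 23 to 595 over 2-fold. The lowest counts in each direction were without day 7 replicate 1 and the highest without day 7 replicate 3, and 23 was without day 3 replicate 4. Without both libraries that stood apart, a setting chosen after seeing the data, the counts were 2629, 2731 and 700. With the replicate number as a block they were 1028, 1317 and 26. Same-numbered libraries of the days had correlations of -0.050, -0.160, -0.086 and 0.133 between their deviations, so that they share only a number. The difference in day course called 0 genes in the main fit, 9 with no filter, 1 with DESeq2, 0 with voom, 0 without the mouse block, 0 to 1 when leaving out 1 mouse, and 1 without both mice. Direction reversed for 5 genes that had not passed, and 2 of them then passed: Pecam1 without day 3 replicate 1 (adjusted p = 0.0377) and without both libraries (adjusted p = 0.0405), and Saa3 without both (adjusted p = 0.00664). The log2 change of Cxcl12 was -0.074 with limma voom, -0.10 with the replicate block, -0.61 without both libraries and -0.60 to 0.67 when leaving out 1 library. That of Itga7 was 0.28, 0.44, 0.79 and -1.18 to 1.44 in the same order. That of Pecam1 was 1.13, 0.97, 1.99 and -0.52 to 2.24, positive without day 7 replicate 4 (0.16). Ddx3y was at 0.20 without both and at -0.48 to 0.31 when leaving out 1 library, and Saa3 at -1.27 and at -1.02 to 4.30. With 1 library left out, the highest value of Itga7 and of Pecam1 came without day 3 replicate 1. The reversed values of Cxcl12, Ddx3y and Saa3 in those fits came without day 7 replicate 3. The cause was not tested. Direction of the library measures held when each library was left out. Totals differed by -3.04 to -6.05 M and genes with a count by -112.6 to -635.9, and the top 50 share by 4.54 to 7.07 percentage points. Depth limits levels below 0.0923 to 0.136 CPM.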
